A study of Mus musculus with 2 samples.

Results

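CXC chemokines and their receptors were followed across the leukocytes of neonatal mouse skin. The set holds 10 of the 32285 genes in the files: the ligands Cxcl1, Cxcl2, Cxcl3, Cxcl9, Cxcl10 and Cxcl16, and the receptors Cxcr2, Cxcr3, Cxcr4 and Cxcr6. They were chosen by name, and all 10 were found by symbol in both libraries. Live CD45+ cells were sorted from collagenase-digested skin of wild-type C57BL/6 mice aged 15 days. The mice had received antibody every other day from postnatal day 4 to day 14. One pool of 4 to 7 mice was given an anti-Gr-1 antibody, to deplete monocytes according to the series' design, and another pool of that size an isotype control antibody. Gr-1 antibodies bind Ly6G and Ly6C, so neutrophils carry the target as well as classical monocytes.

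Chemokines are small secreted proteins that guide leukocytes through receptors coupled to G proteins. Cxcl1, Cxcl2 and Cxcl3 attract neutrophils through Cxcr2, and are induced early in inflammation through NF-kB. Cxcl9 and Cxcl10 are induced by interferons and attract activated T and NK cells through Cxcr3. Cxcl16 is made as a membrane protein that can be shed, and its receptor Cxcr6 marks tissue lymphocytes. Cxcr4 is the receptor of Cxcl12 and holds leukocytes in bone marrow and other tissues.

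After filtering, 16487 isotype control cells and 7529 anti-Gr-1 cells were kept, with medians of 5073 and 7867 unique molecular identifiers (UMIs, single captured RNA molecules) per cell. Ptprc, which encodes CD45, had a UMI in 90.9% and 94.8% of them. Cells were placed in 22 classes by marker gates, and each name stands for cells like that type. The 10 leading genes of the dendritic epidermal T cell gate, among them Fermt2, Trat1 and Cd3e, held 0 of the markers listed for that type. Cells that met no gate made up 23.5% of the isotype control cells against 11% after anti-Gr-1, with medians of 1433 and 5047 UMIs, and 7.15% and 2.31% carried markers of several lineages. Neutrophils numbered 156 and 6 cells and classical monocytes 346 and 53, so no comparison of the libraries was possible for neutrophils. A total of 61 barcodes occurred in both libraries, 44 of them among kept cells. The libraries also differed in the sex of their cells: 5714 female and 5373 male cells could be told in the isotype control pool, against 1433 and 4316 in the anti-Gr-1 pool. Each treatment is a single pool and library, so differences carry no test. Levels are UMIs of a gene per 1000000 UMIs of the class (CPM), and the ranges in brackets are exact 95% intervals that cover counting error only.

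The 3 neutrophil attractants lie in 1 cluster on chromosome 5 of mm10, where Cxcl15 stands between Cxcl3 and Cxcl1: Cxcl3 at chr5:90786103-90789600, Cxcl1 at chr5:90891241-90893115 and Cxcl2 at chr5:90903871-90905938, all on the plus strand. Cxcl9 (chr5:92321347-92328079) and Cxcl10 (chr5:92346638-92348889) are neighbours on the minus strand of that chromosome. The promoters of 9 of the 10 genes were matched in RefSeq on GRCm38.p6, each as 250 bases before to 50 bases after the start; Cxcl16 had no entry. They were searched on both strands for the NF-kB consensus and for the interferon motif GAAANNGAAA. The NF-kB consensus was present in 8.46% of 32851 promoters of that length, and the interferon motif in 3.44%. Among the 9, Cxcl1, Cxcl2, Cxcl3 and Cxcl10 held the first and Cxcl10 alone the second. These 4 are shown because cells rich in Cxcl2 or Cxcl10 were compared for NF-kB and interferon driven genes. Each is given 5′ to 3′ along the gene, from 250 to 51 bases before the start, with matches in capitals. The regions are chr5:90890995-90891194, chr5:90903649-90903848 and chr5:90785851-90786050 on the plus strand for Cxcl1, Cxcl2 and Cxcl3, and chr5:92348940-92349139 on the minus strand for Cxcl10.
Cxcl1: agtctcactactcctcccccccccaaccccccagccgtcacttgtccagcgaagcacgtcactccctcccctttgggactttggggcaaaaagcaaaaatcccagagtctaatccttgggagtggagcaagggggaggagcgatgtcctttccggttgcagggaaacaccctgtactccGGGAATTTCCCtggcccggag
Cxcl2: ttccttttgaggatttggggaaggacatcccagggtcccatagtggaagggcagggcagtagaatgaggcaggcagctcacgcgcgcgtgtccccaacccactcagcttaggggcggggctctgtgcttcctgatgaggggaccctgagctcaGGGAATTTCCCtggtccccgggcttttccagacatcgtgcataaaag
Cxcl3: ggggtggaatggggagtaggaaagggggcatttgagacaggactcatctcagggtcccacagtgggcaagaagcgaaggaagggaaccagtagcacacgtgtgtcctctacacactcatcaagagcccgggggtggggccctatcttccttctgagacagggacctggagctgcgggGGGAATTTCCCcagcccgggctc
Cxcl10: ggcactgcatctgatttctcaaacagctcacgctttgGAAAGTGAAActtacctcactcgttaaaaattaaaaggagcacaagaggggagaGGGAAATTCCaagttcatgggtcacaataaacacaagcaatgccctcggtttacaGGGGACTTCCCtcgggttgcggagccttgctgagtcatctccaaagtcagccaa
In the neutrophil attractants the capitals are a palindrome-like NF-kB match read on both strands with a shift of 1 base, and it begins 71 bases before the start in Cxcl1, 97 in Cxcl2 and 73 in Cxcl3. In Cxcl10 the first capitals are the interferon motif, 213 bases before the start, and the next are NF-kB matches beginning 159 and 104 bases before it. Neither motif was found in the windows of Cxcl9, Cxcr2, Cxcr3, Cxcr4 and Cxcr6. A match describes letters and shows no bound factor.

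The ligands and receptors divided the skin between them. Phagocytes and granulocytes had most of Cxcl1 and Cxcl2, group 2 innate lymphoid cells the largest share of Cxcl3, dendritic cells most of Cxcl16 and the largest share of Cxcr3, lymphocytes held Cxcr6, and Cxcr4 was spread over nearly every class. Cxcl10 had no dominant class.

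**Figure D1:**
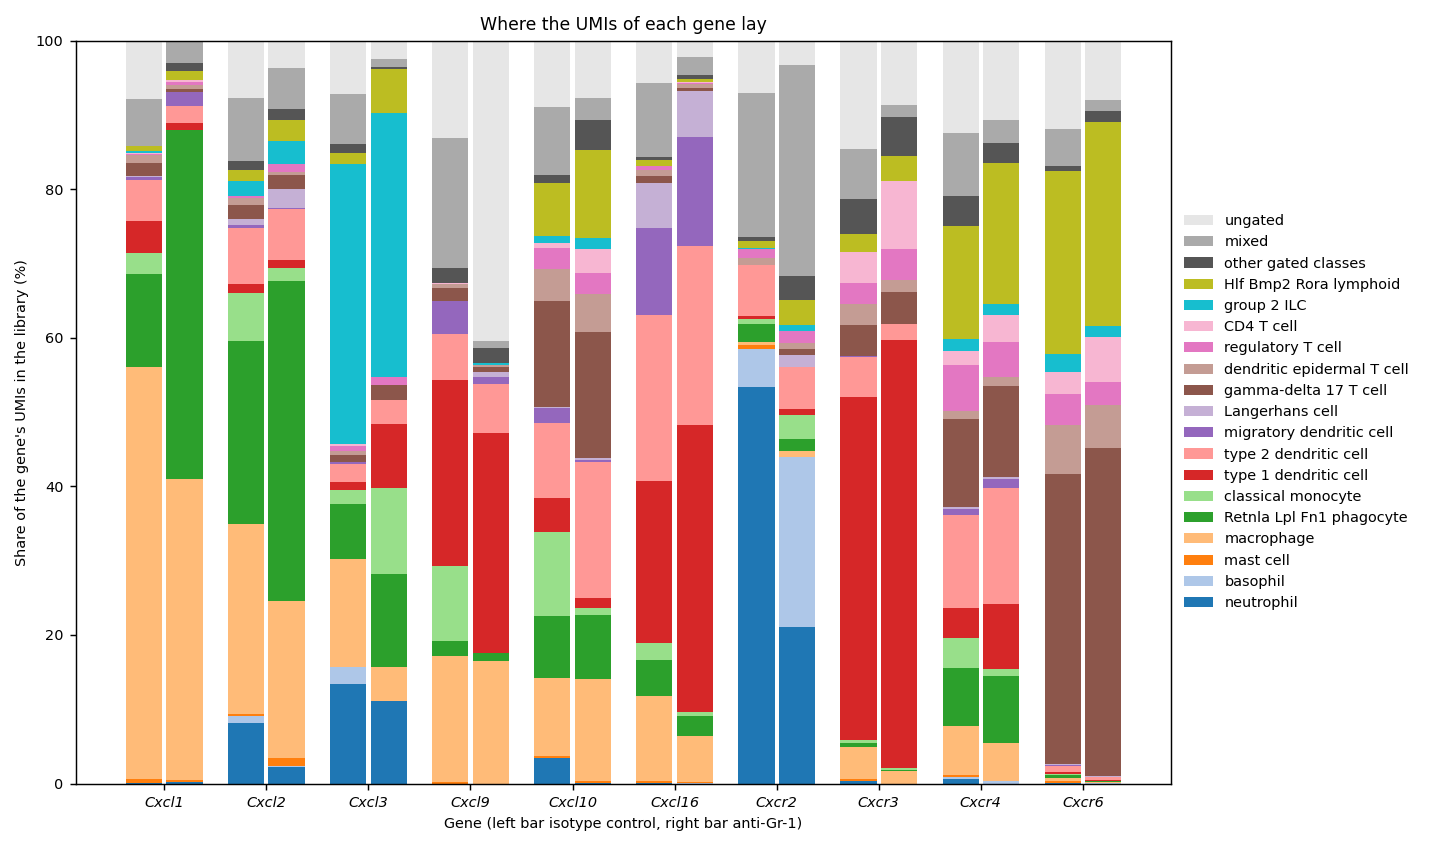
Share of each gene's UMIs by cell class, in percent of all UMIs of the gene in the library, with the isotype control as the left bar and anti-Gr-1 as the right bar of each pair. Macrophages and Retnla Lpl Fn1 phagocytes hold most of Cxcl1 and Cxcl2, type 1 dendritic cells 46.2% and 57.7% of Cxcr3, and gamma-delta 17 T cells 39.1% and 44.2% of Cxcr6; ungated cells hold 40.4% of Cxcl9 in the anti-Gr-1 library.

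Cxcl2 was the most abundant ligand by UMIs, with 67910 in the isotype control against 29299 after anti-Gr-1. Neutrophils had the highest level, 17453 CPM (16994 to 17921) in the isotype control and 21115 CPM (19511 to 22816) in the 6 anti-Gr-1 cells. A Cxcl2 UMI was found in 86.5% (80.2 to 91.5) of isotype control neutrophils although their median was 1898 UMIs. The richest 10% of these neutrophils held 44.5% of the UMIs.

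Below neutrophils in the isotype control came basophils at 6200 CPM, the Alox15 Ccr3 cells at 3512, macrophages at 2746, Retnla Lpl Fn1 phagocytes at 2218, group 2 innate lymphoid cells at 1360 and classical monocytes at 1356. Group 2 innate lymphoid cells and classical monocytes did not differ beyond their intervals, while the levels above them did. Among anti-Gr-1 classes of at least 20 cells the Alox15 Ccr3 cells stood at 3920 CPM, Retnla Lpl Fn1 phagocytes at 2514, macrophages at 1932, group 2 innate lymphoid cells at 1422 and non-classical monocytes at 1022. Macrophages and Retnla Lpl Fn1 phagocytes had thus changed places. Alox15 Ccr3 cells are named by their leading genes, Alox15 and the eotaxin receptor Ccr3, and numbered 32 and 51 cells with medians of 920.5 and 1011 UMIs. Basophils were few, at 26 and 14 cells, and 1 cell held 32% of their isotype control UMIs of Cxcl2 and 77.4% of those in the anti-Gr-1 library.

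Because macrophages and Retnla Lpl Fn1 phagocytes were numerous, they supplied most of the transcript. Macrophages held 25.6% of all Cxcl2 UMIs in the isotype control and 21.1% after anti-Gr-1, and Retnla Lpl Fn1 phagocytes 24.6% and 43%. In macrophages the level was lower after anti-Gr-1, with a ratio of 0.704 (0.683 to 0.724), and in Retnla Lpl Fn1 phagocytes it was slightly higher, with a ratio of 1.13 (1.11 to 1.16). The second difference turned direction when every cell had the same weight, at 0.988, when cells were thinned to 1000 UMIs, at 0.893, and with clusters in place of gates, at 0.994.

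The share of macrophages with a Cxcl2 UMI was 54.7% (51.4 to 58) in the isotype control and 45% (39.4 to 50.7) after anti-Gr-1, although the median depth was higher in the latter, 9681 against 6506 UMIs. Thinned to 1000 UMIs a cell, which left out 16 and 0 macrophages, the shares were 40% and 29.6%. Dendritic epidermal T cells, which are not a known source of Cxcl2 and were picked as a reference after their values were seen, had a UMI in 13.3% and 6.85% of cells, at medians of 4808 and 6306 UMIs. Thinned, with 13 and 0 cells left out, those were 3.66% and 0.914%. Macrophages lay far above that reference in both libraries, and the reference itself was lower after anti-Gr-1.

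Resident macrophages carry the folate receptor Folr2 and the hyaluronan receptor Lyve1, and Cxcl2 lay mostly outside them. Macrophages without a UMI of either had 3971 CPM of Cxcl2 against 1319 with one in the isotype control, and 3376 against 831 after anti-Gr-1. Cxcl1 ran the same way, at 178 against 64.9 CPM and 111 against 50 CPM. So did Cxcl16, at 211 against 117 and 164 against 99.5 CPM, and the receptor Cxcr4, at 232 against 96 and 218 against 135 CPM. Median depth was alike on both sides, at 6410 and 6546 UMIs in the isotype control and 8960 and 9965 after anti-Gr-1.

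Lower levels of Cxcl2 were measured in dendritic cells and T cells. Type 2 dendritic cells had 245 and 138 CPM, a ratio of 0.565 (0.536 to 0.595) that was 0.249 (0.217 to 0.284) in female and 0.653 (0.612 to 0.696) in male cells, and gamma-delta 17 T cells 147 and 74.2 CPM, a ratio of 0.503 (0.455 to 0.557). In both, a few cells carried it: the richest 10% of type 2 dendritic cells held 93.3% and 96.9% of their Cxcl2 UMIs. Among gamma-delta 17 T cells of the isotype control, those with an Il17a UMI had 206 CPM and those without had 112; after anti-Gr-1 the values were 85 and 67.9 CPM. The share of cells with a Cxcl2 UMI was 24.5% and 21.7%, and 15% and 13.7% after anti-Gr-1. Langerhans cells had 399.6 and 853 CPM, where 1 cell held 23.3% and 28.9% of the UMIs and the ratio of 2.13 was 5.49 in male cells.

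Cxcl1 was mainly a phagocyte transcript. Macrophages held 55.4% of its 1438 UMIs in the isotype control and 40.5% of its 605 UMIs after anti-Gr-1, while Retnla Lpl Fn1 phagocytes held 12.6% and 46.9%. The macrophage level was 126 CPM (117 to 135) and 76.4 CPM (67.1 to 86.6), a ratio of 0.607 (0.524 to 0.701). In Retnla Lpl Fn1 phagocytes it was 24 CPM (20.6 to 27.8) and 56.6 CPM (50.2 to 63.6), a ratio of 2.36 (1.95 to 2.86). That ratio was 3.97 after thinning, 3.95 (2.57 to 6.13) in female cells and 1.83 (1.42 to 2.35) in male cells. The difference between the libraries thus had opposite directions in the 2 classes, and it kept them without the richest cell of each library, at 0.583 and 2.32. Whether the directions differ beyond mouse-to-mouse variation could not be tested.

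Few cells carried Cxcl1. Only 91 of 897 isotype control macrophages (10.1%) and 38 of 311 after anti-Gr-1 (12.2%) had a UMI, against 0.291% and 0.228% of dendritic epidermal T cells. In Retnla Lpl Fn1 phagocytes these shares were 4.13% and 6.21%. Thinned to 1000 UMIs, the macrophage shares were 5.79% and 3.54%, in the opposite order, and those of Retnla Lpl Fn1 phagocytes 0.99% and 2.41%, beside 0.147% and 0.0762% in dendritic epidermal T cells. Cells with Cxcl1 nearly always had Cxcl2 as well: 94.5% (87.6 to 98.2) of the Cxcl1-positive isotype control macrophages against 50.2% (46.7 to 53.8) of the rest, and 89.5% against 38.8% after anti-Gr-1. The Cxcl1-positive cells were deeper, with medians of 7865 against 6344 UMIs and 12134 against 9431.

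Cxcl3, the scarcest of the neutrophil attractants, had 337 and 287 UMIs, and its largest share was in group 2 innate lymphoid cells, tissue lymphocytes known for type 2 cytokines. These cells held 37.7% and 35.5% of its UMIs at 124 CPM (104 to 148) and 162 CPM (132 to 196), a ratio of 1.3 (0.99 to 1.7) that was 3.06 (2.06 to 4.61) in male cells. A Cxcl3 UMI was present in 19 of 118 and 8 of 57 of them, and 1 cell held 61.4% of the isotype control UMIs and 48% of the anti-Gr-1 UMIs. Neutrophils had 143 CPM in the isotype control, from 8 of 156 cells. Macrophages had 7.74 and 4.05 CPM, a ratio of 0.524 (0.261 to 0.981) from 49 and 13 UMIs, which was 0.207 (0.00494 to 1.32) in female cells, 0.831 (0.355 to 1.86) in male cells and 0.944 (0.018 to 11.8) thinned. In the anti-Gr-1 library all 33 Cxcl3 UMIs of classical monocytes came from 1 cell. Mast cells had 0 UMIs of Cxcl3 in either library, where 3 UMIs would be 1.36 and 1.34 CPM.

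Cxcr2, the receptor of those ligands, was a granulocyte transcript, and the next highest gated class of the isotype control, keratinocytes, had 2.89 CPM from 1 UMI. Neutrophils had 725 CPM (634 to 825) there, with a UMI in 50.6% of cells, and basophils 191 CPM (119.5 to 289), in 12 of 26 cells. After anti-Gr-1, 6 neutrophils had 858 CPM, 14 basophils 302 CPM (201 to 437) and 51 Alox15 Ccr3 cells 63.5 CPM, all 4 UMIs from 1 cell. Neutrophils supplied 53.4% of the 427 isotype control UMIs and 21.1% of the 123 anti-Gr-1 UMIs. Basophils supplied 5.15% and 22.8%, and cells with markers of several lineages 19.4% and 28.5%. Over the whole library the level was 4.14 and 1.66 CPM. Type 2 dendritic cells, the large class with most Cxcr2 UMIs, had 1.38 and 0.475 CPM, a ratio of 0.343 (0.127 to 0.801). Dendritic epidermal T cells had 0.38 and 0.115 CPM, with a UMI in 0.194% and 0.0762% of cells.

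**Figure D2:**
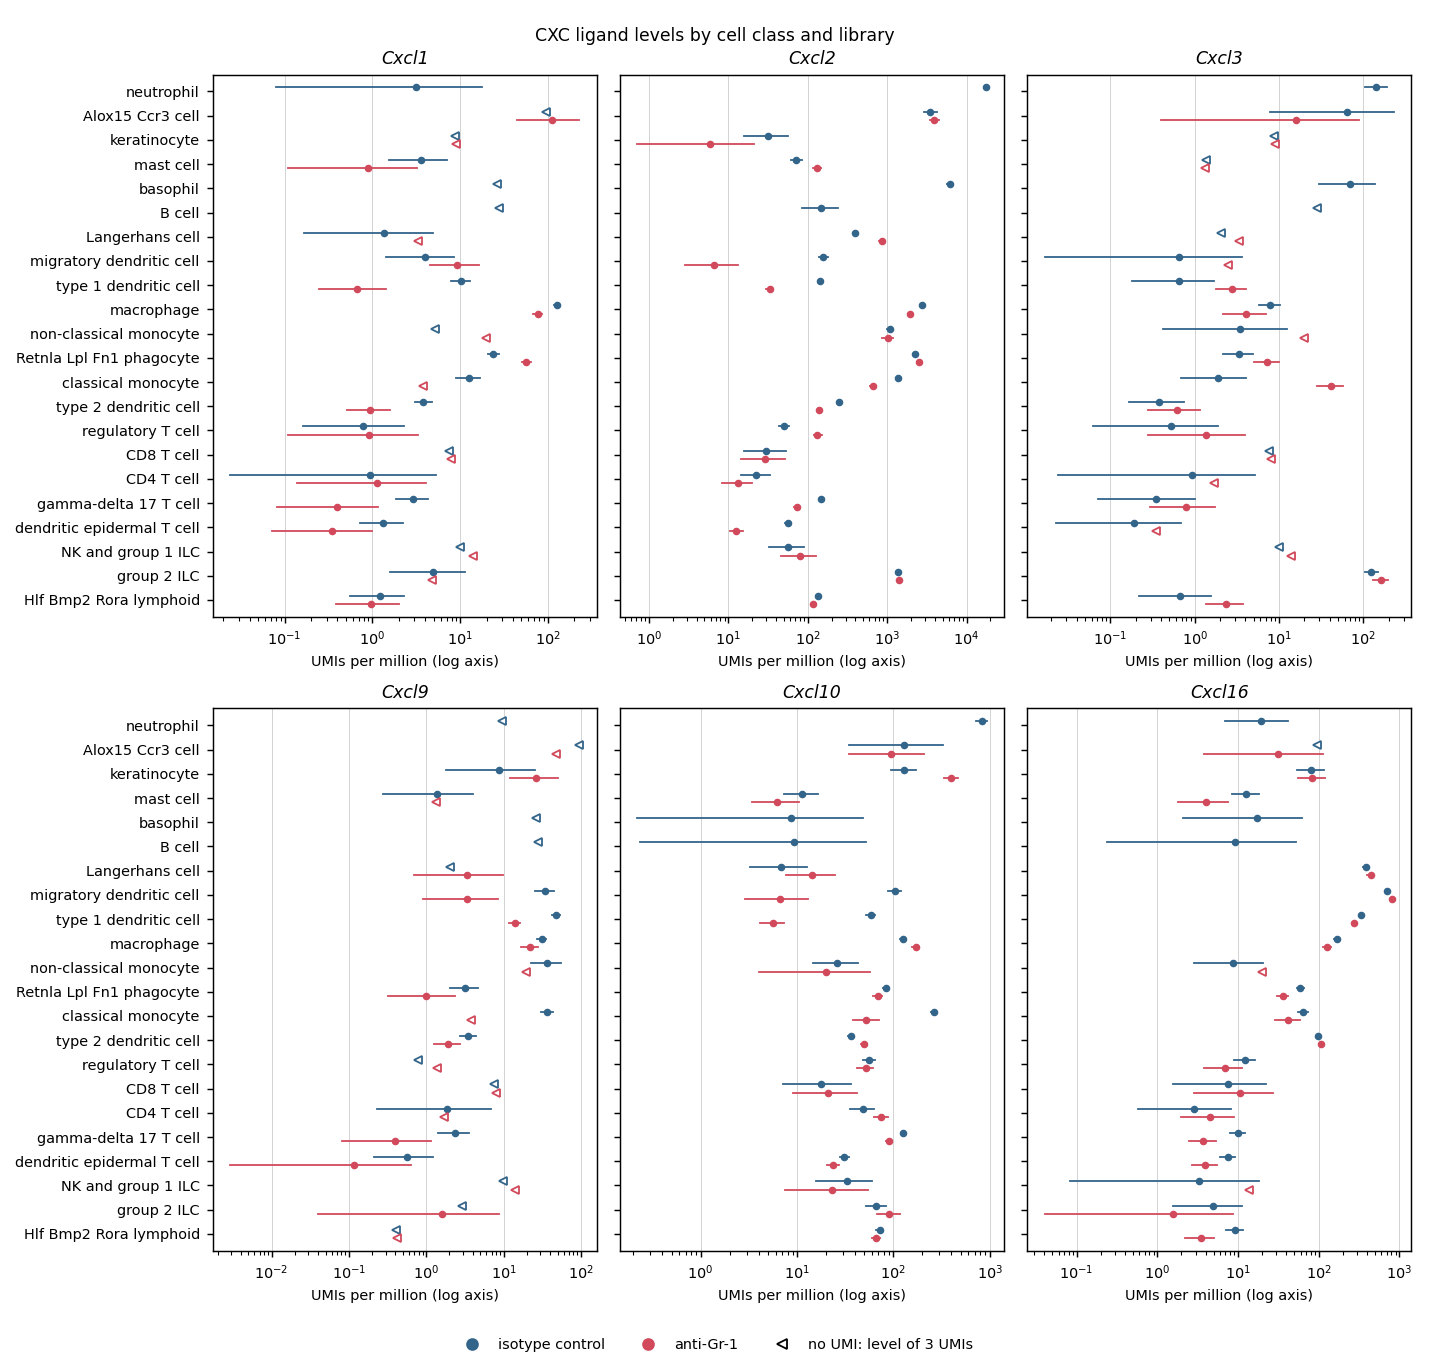
Level of each ligand in CPM on a log axis, by class (rows) and library (blue isotype control, red anti-Gr-1), with exact 95% Poisson intervals; a triangle marks a class with no UMI, drawn at the level of 3 UMIs, and classes under 20 cells in a library are left out. Cxcl2 spans the widest range, up to 17453 CPM in neutrophils, and Cxcl16 peaks in migratory dendritic cells at 713 and 809 CPM.

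Cxcl9 and Cxcl10 share the receptor Cxcr3. Type 1 dendritic cells, which cross-present antigen to CD8 T cells, had Cxcl9 at 48.2 CPM (42.8 to 54.1) in the isotype control and 13.9 CPM (11.6 to 16.5) after anti-Gr-1, a ratio of 0.288 (0.232 to 0.356). In the isotype control they stood first, with an interval that overlapped that of non-classical monocytes at 36.6 CPM (22.7 to 56) and of classical monocytes at 36.8 CPM (30.4 to 44). In non-classical monocytes 1 cell held 90.5% of the UMIs. After anti-Gr-1, 23 keratinocytes at 26.6 CPM (12.2 to 50.5) and macrophages at 21.8 CPM (17 to 27.6) stood above type 1 dendritic cells. The keratinocyte value came from 9 UMIs in 2 cells, and its interval overlapped that of type 1 dendritic cells. The share of these cells with a UMI was 32 of 463 (6.91%) and 38 of 517 (7.35%), or 2.16% and 1.35% after thinning, beside 0.291% and 0.0762% of dendritic epidermal T cells before it. One isotype control cell held 95 of the 292 UMIs, and without the richest cell of each library the ratio was 0.359. Thinning gave 0.597 (0.262 to 1.31), female cells alone 0.582 (0.399 to 0.836) and male cells alone 0.507 (0.291 to 0.893).

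Outside type 1 dendritic cells, Cxcl9 came from macrophages at 31.3 and 21.8 CPM and, in the isotype control, from classical monocytes. The 53 anti-Gr-1 classical monocytes had 0 UMIs, and 3 UMIs would be 3.76 CPM. In the isotype control 12 of 346 classical monocytes (3.47%) had a UMI, and 1 cell held 39% of the UMIs. The interval of the anti-Gr-1 share, 0 to 6.72%, takes in that 3.47%, so a loss was not resolved. In macrophages 1 cell held 25.8% and 67.1% of the UMIs, and the ratio of 0.698 (0.524 to 0.921) was 0.311 without those cells, 2.04 in female cells and 0.0959 in male cells. Migratory dendritic cells had 34.1 CPM in the isotype control, 94.2% of it from 1 cell. One ungated cell held 156 of the 426 Cxcl9 UMIs of the anti-Gr-1 library. Cxcl9 thus lay in few and rich cells, and 0.593% and 0.286% of gamma-delta 17 T cells had a UMI of it.

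Cxcl10 had 7613 and 4016 UMIs and no dominant source. Gamma-delta 17 T cells held 14.2% and 16.9% of them and type 2 dendritic cells 10.1% and 18.4%. In gamma-delta 17 T cells it was at 126 CPM (119 to 134) and 90.2 CPM (83.5 to 97.3), a ratio of 0.714 (0.648 to 0.787). Macrophages had 126 and 171 CPM, a ratio of 1.35 (1.21 to 1.51). Type 2 dendritic cells had 36.6 and 50 CPM, a ratio of 1.37 (1.24 to 1.52). Keratinocytes, of which 37 and 23 were in the sort, had 130.2 CPM (95 to 174) and 399 CPM (335 to 473), and 1 cell held 42.2% and 54.8% of their UMIs. The macrophage ratio was 1.2 without the richest cells and 1.05 after thinning.

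Type 1 dendritic cells and classical monocytes went the other way for Cxcl10. In type 1 dendritic cells the level was 58.4 CPM (52.5 to 64.8) and 5.62 CPM (4.18 to 7.39), a ratio of 0.0962 (0.0702 to 0.129), and 0.14 without the richest cells. It was 0.0118 (0.00142 to 0.043) in female cells, 0.218 (0.143 to 0.329) in male cells and 0.203 with clusters in place of gates. A UMI was found in 11.2% and 5.03% of these cells, and in 3.24% and 0.58% after thinning. Classical monocytes had 266 and 52.7 CPM, a ratio of 0.198 (0.142 to 0.27). Only 42 and 5 of them had a UMI, 12.1% (8.89 to 16.1) and 9.43% (3.13 to 20.7), shares with overlapping intervals. In these classical monocytes 1 cell held 21% and 42.9% of the UMIs. Migratory dendritic cells had 103 and 6.66 CPM, where 1 isotype control cell held 55.4%. Neutrophils of the isotype control had 827 CPM, but from 10 of 156 cells, with 52.7% in 1 of them. Dendritic epidermal T cells had a UMI in 3.88% and 2.82% of cells and, thinned, in 1.12% and 1.14%. Mast cells, with 11.3 and 6.24 CPM, had a UMI in 4 of 545 and 0 of 356 thinned cells. After anti-Gr-1 the interval of the thinned share of type 1 dendritic cells overlapped those of both classes.

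A list of interferon driven genes, which also holds the cytokine Ifng and the receptor chain Ifngr1, was read beside these ligands. In type 1 dendritic cells 9 of the 9 measured genes of that list were lower after anti-Gr-1 and 6 were past 2-fold, where 1.13% of all genes of the class were, with a median of −1.09 on the log2(CPM + 5) scale against −0.10 over all genes tested. Among them Rsad2, an antiviral enzyme, had 61.4 and 6.39 CPM, Isg15, a ubiquitin-like modifier, 47.5 and 7.27 CPM, Ifit1 12 and 0.551 CPM, and Ifit3 16 and 0 CPM. The interferon-gamma receptor chain Ifngr1 was at 184 and 179 CPM. Classical monocytes, with 346 and 53 cells, had all 9 measured genes of the list lower, with a median of −1.93. Their list summed to 1448 and 435 CPM, and the share over all genes was not counted for that class. Macrophages had 8 of 9 lower but 0 past 2-fold (0.976% of all genes), with a median of −0.27. In Retnla Lpl Fn1 phagocytes 7 of 9 were higher, 1 of them past 2-fold (0.371% of all genes), with a median of 0.25.

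Cells rich in a ligand also differed in other inflammatory genes. A cell was called high for a ligand at 10 or more of its UMIs per 10000, and compared with cells of the class and library that had none. High macrophages for Cxcl2 had a summed level of 7072 CPM of 10 NF-kB driven genes, against 2155 CPM in those without, in the isotype control, and 7012 against 1295 CPM after anti-Gr-1. The interferon list was higher in these cells as well, at 925 against 711 CPM and 870.1 against 543 CPM. Nfkbia, which encodes the inhibitor of NF-kB, was at 1629 against 549 CPM in the isotype control, Il1b at 1296 against 416 and Tnf at 230.4 against 53.4. The high cells held 97.6% and 96.9% of all Cxcl2 UMIs of macrophages. Immediate early genes, which tissue digestion is known to induce, were also higher there, at 34134 against 24422 CPM and 32912 against 18536 CPM, and their part in the result was not tested.

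Neutrophils had the widest gap, with 17004 CPM of the NF-kB list in 128 high cells against 2656 CPM in 21 cells without Cxcl2, at medians of 2146 and 1210 UMIs, and their interferon list stood at 1635 against 414 CPM. In type 2 dendritic cells the gap was narrow, at 8447 against 7535 CPM and 8785 against 7180 CPM. Retnla Lpl Fn1 phagocytes lay between, at 4740 against 3148 CPM and 4744 against 3038 CPM. In this class the immediate early list differed little, at 18585 against 17698 CPM and 17907 against 16938 CPM.

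High cells for Cxcl10 had more of the interferon list in macrophages and in gamma-delta 17 T cells. In isotype control macrophages it summed to 2102 CPM in the 36 high cells against 759.9 CPM in those without Cxcl10, and Cxcl9 was at 252 against 22.4 CPM. The NF-kB list was higher too, at 9580 against 3692 CPM, as were Cxcl2, at 5593 against 2247 CPM, and the immediate early list. The immediate early list was at 38011 against 29735 CPM, and its part in the result was not tested. In gamma-delta 17 T cells the interferon list was at 2073 against 872 CPM while the NF-kB list was at 5579 against 5861 CPM. There the immediate early list was at 13686 against 14226 CPM. Within the interferon list, Gbp2, a guanylate-binding protein, was at 175 against 19.8 CPM in these T cells, Gbp4 at 278 against 34.3 and Irf1 at 285 against 68.4.

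**Figure D3:**
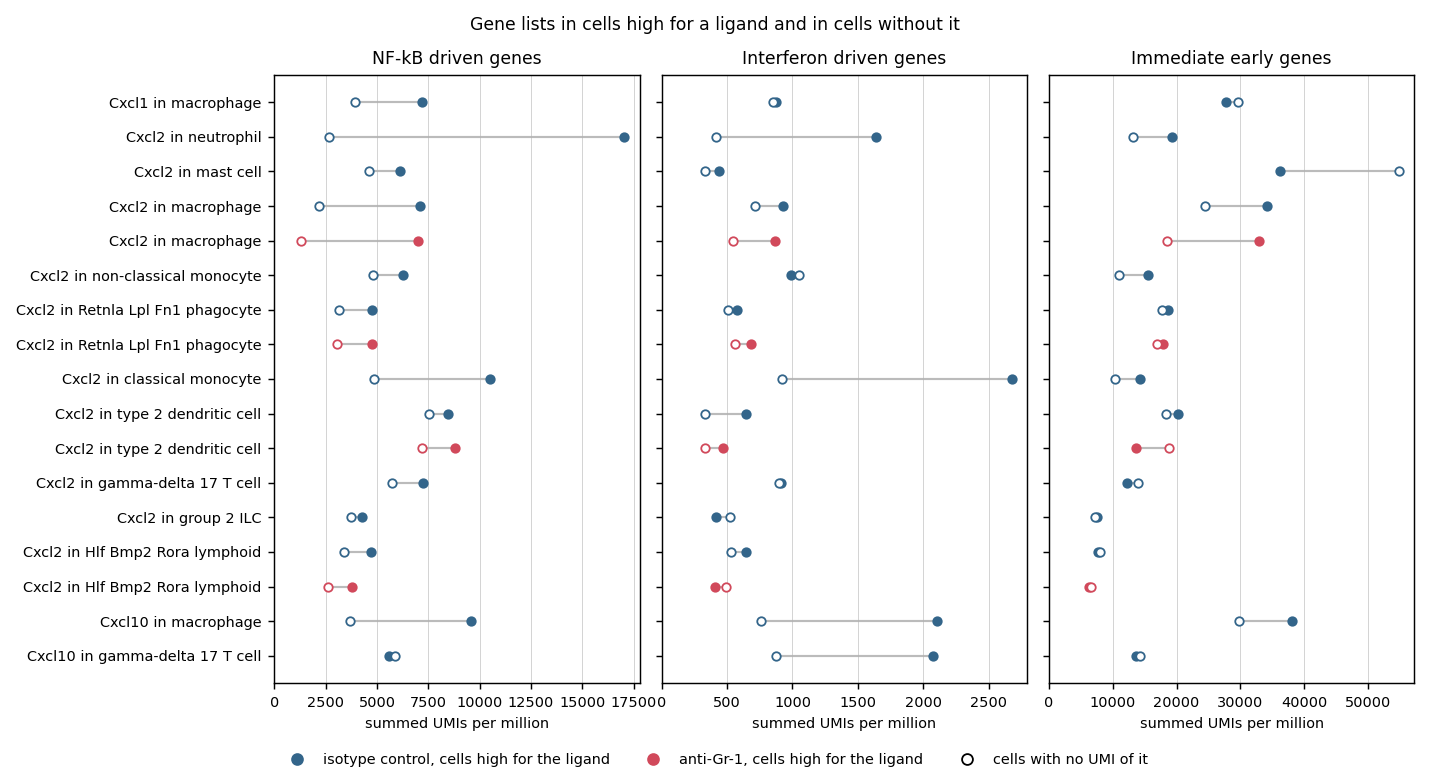
Summed level of 3 gene lists (CPM, linear axes from 0) in cells high for a ligand (filled) and in cells with none of it (open), by class and library, blue for isotype control and red for anti-Gr-1. The NF-kB gap is widest for Cxcl2 in neutrophils, 17004 against 2656 CPM, and for Cxcl10 in gamma-delta 17 T cells of the isotype control the interferon list stands at 2073 against 872 CPM and the NF-kB list at 5579 against 5861 CPM.

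Cxcl16 was a dendritic cell ligand, present in most cells of its richest classes. Migratory dendritic cells, which carry Ccr7 and travel to lymph nodes, had 713 CPM (671 to 756) and 809 CPM (759 to 861), Langerhans cells of the epidermis 387 and 447 CPM, and type 1 dendritic cells 335 CPM (320.2 to 349) and 279 CPM (269 to 290.4). Macrophages followed at 167 and 128 CPM and type 2 dendritic cells at 98.8 and 107 CPM. This order was the same in both libraries, and the intervals of neighbours did not overlap. Of migratory dendritic cells 82.4% and 93.6% had a UMI, of type 1 dendritic cells 86.6% and 90.1%, at medians of 12678 and 16997 UMIs, and of dendritic epidermal T cells 3.4% and 2.36%. Thinned to 1000 UMIs, type 1 dendritic cells stood at 27.4% and 22.2% and dendritic epidermal T cells at 0.782% and 0.228%.

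The ratio of Cxcl16 between the libraries differed by class. It was 1.13 (1.04 to 1.24) in migratory dendritic cells, 0.835 (0.787 to 0.885) in type 1 dendritic cells and 0.763 (0.679 to 0.856) in macrophages. At the lower levels of 59.6 and 35.9 CPM it was 0.602 (0.504 to 0.717) in Retnla Lpl Fn1 phagocytes. There female cells gave 0.278 (0.151 to 0.474), with 15 anti-Gr-1 UMIs, and male cells 0.725 (0.578 to 0.906). Over the whole library the levels were 90 and 88.9 CPM, a ratio of 0.988 (0.957 to 1.02). The richest 10% of type 1 dendritic cells held 32.4% and 30.1% of their Cxcl16 UMIs, against 65.6% and 68.6% for Cxcl2 in macrophages. In lymphoid classes with little Cxcl16 the ratio was 0.372 (0.234 to 0.576) in gamma-delta 17 T cells with 86 and 28 UMIs and 0.378 (0.229 to 0.606) in the Hlf Bmp2 Rora lymphoid cells with 68 and 25. Cd74, an abundant dendritic cell transcript, was lower in the same gamma-delta 17 T cells, at 584 and 249 CPM, and its part in the result was not tested.

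Cxcr3, the receptor of Cxcl9 and Cxcl10, is best known from T and NK cells, and type 1 dendritic cells held the largest share here, 46.2% of 745 UMIs and 57.7% of 927. Their level was 56.8 CPM (50.9 to 63.1) and 58.9 CPM (54.1 to 64.2), a ratio of 1.04 (0.905 to 1.19). A UMI was found in 49.7% and 57.4% of these cells and in 0.304% and 0% of mast cells, the reference for this receptor. Thinned, 5.83% and 5.42% of type 1 dendritic cells were positive against 0% of mast cells, where 113 and 1 shallower cells were left out.

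NK and group 1 innate lymphoid cells had 59.4 and 74.3 CPM of Cxcr3, CD8 T cells 37.8 CPM (21.2 to 62.3) and 87.6 CPM (60.3 to 123), and CD4 T cells 29.2 CPM (19.8 to 41.4) and 48.4 CPM (38.7 to 59.9). The intervals of NK cells and type 1 dendritic cells overlapped in both libraries, so their order was not resolved. Regulatory T cells had 5.47 CPM (3.39 to 8.37) and 17.3 CPM (12.3 to 23.8), a ratio of 3.16 (1.81 to 5.67) from 21 and 38 UMIs, which was 1.37 (0.426 to 3.86) in female cells, 7.14 (2.44 to 28.4) in male cells and 1.77 (0.351 to 8.21) thinned, with a UMI in 2.47% and 8.44% of cells and, thinned, in 0.74% and 1.31%. In CD4 T cells the ratio was 1.66 (1.09 to 2.59), and 0.904 (0.388 to 2.14) in female cells. Macrophages, gamma-delta 17 T cells and dendritic epidermal T cells had between 1.83 and 5.32 CPM in either library.

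**Figure D4:**
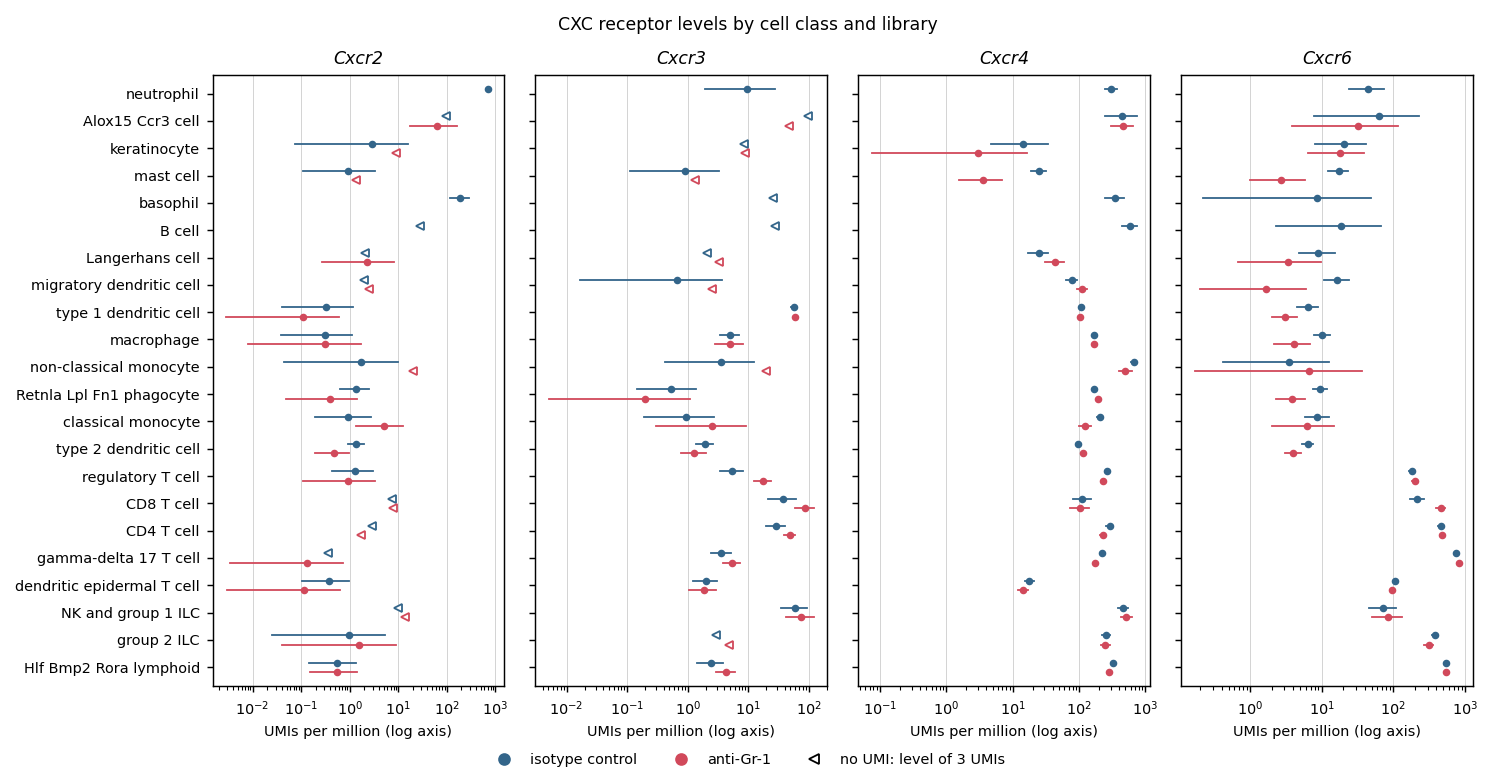
Level of each receptor in CPM on a log axis, by class (rows) and library (blue isotype control, red anti-Gr-1), with exact 95% Poisson intervals; a triangle marks a class with no UMI, drawn at the level of 3 UMIs, and classes under 20 cells in a library are left out. Cxcr2 stands out in granulocytes and Cxcr6 in T and innate lymphoid cells, while Cxcr4 is spread over most classes.

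Cxcr6 was the receptor of the tissue lymphocytes. Gamma-delta 17 T cells, dermal T cells that make interleukin-17, had 759 CPM (741 to 778) and 830.2 CPM (809.8 to 851), and 89.1% and 92.7% of them had a UMI. The Hlf Bmp2 Rora lymphoid cells, CD3-negative cells named by their genes, had 549.7 and 537 CPM, CD4 T cells 462 and 484 CPM, group 2 innate lymphoid cells 387 and 314 CPM, and regulatory T cells 181 and 199.5 CPM. Dendritic epidermal T cells stood lower at 105 and 94.8 CPM, with a UMI in 32.5% and 34% of cells. NK and group 1 innate lymphoid cells had 72.6 and 83.6 CPM. Mast cells, the reference, had a UMI in 5.32% and 1.68% of cells, at medians of 2681 and 5501 UMIs.

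The ratio of Cxcr6 over all cells was 1.09 (1.06 to 1.13) in gamma-delta 17 T cells, 0.977 (0.935 to 1.02) in Hlf Bmp2 Rora lymphoid cells, 1.05 (0.935 to 1.17) in CD4 T cells and 1.1 (0.974 to 1.24) in regulatory T cells, where female cells gave 1.66 (1.29 to 2.13) and male cells 0.871 (0.734 to 1.03). CD8 T cells had 217 CPM (173 to 268) and 459 CPM (393 to 533), a ratio of 2.12 (1.63 to 2.78), in 57 and 43 cells, with a UMI in 54.4% and 100% of them and, thinned, in 12.5% and 37.2%. In Il17a-positive and Il17a-negative gamma-delta 17 T cells the level was 695 and 798 CPM in the isotype control and 832 and 829 CPM after anti-Gr-1. The richest 10% of gamma-delta 17 T cells held 27.8% and 28.2% of the Cxcr6 UMIs.

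Cxcr4 was present in nearly all classes. Non-classical monocytes had 669.8 CPM (604 to 740.3) and 501 CPM (395 to 627), B cells 579 and 543 CPM, NK and group 1 innate lymphoid cells 465 and 520.3 CPM and the Alox15 Ccr3 cells 447 and 460.3 CPM, and neighbours in the isotype control order had overlapping intervals. Among the large classes Hlf Bmp2 Rora lymphoid cells led at 331 CPM (318 to 344) and 281 CPM (268 to 293), a ratio of 0.847 (0.799 to 0.899). CD4 T cells had 291 and 227 CPM, a ratio of 0.781 (0.672 to 0.909). Gamma-delta 17 T cells had 224 and 175 CPM, with the same ratio of 0.781 (0.727 to 0.838).

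In macrophages, Retnla Lpl Fn1 phagocytes and type 2 dendritic cells the Cxcr4 ratio lay on opposite sides of 1 in female and male cells. It did so too in type 1 dendritic cells, 0.972 and 1.07, and dendritic epidermal T cells, 0.501 and 1.1. In the other classes measured in both sexes it was under 1 in both. The difference between the sexes was not tested. Over all cells the ratio was 1.01 (0.911 to 1.12) in macrophages, 1.16 (1.06 to 1.26) in Retnla Lpl Fn1 phagocytes and 1.17 (1.1 to 1.25) in type 2 dendritic cells, against 0.601 (0.481 to 0.744) in classical monocytes. In female cells it was 0.639 (0.493 to 0.819) in macrophages, 0.901 (0.745 to 1.08) in Retnla Lpl Fn1 phagocytes and 0.89 (0.778 to 1.02) in type 2 dendritic cells. In male cells, the larger number in the anti-Gr-1 pool, the values were 1.55 (1.33 to 1.8), 1.42 (1.27 to 1.6) and 1.39 (1.27 to 1.52). Among T cells, dendritic epidermal T cells had little, 17.9 and 14.5 CPM, with a UMI in 6.7% and 5.64% of cells, beside 48.6% and 46.4% of gamma-delta 17 T cells at medians of 5254 and 6772 UMIs. Thinned, the shares were 1.61% and 1.07%, and 17.5% and 13.7%. Most gamma-delta 17 T cells with Cxcr4 also had Cxcr6, 91.1% and 94.3%, close to the 87.2% and 91.3% among those without.

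Across the 10 classes with at least 100 cells in each library, the measured genes of the set were counted at a 2-fold difference either way on the log2(CPM + 5) scale, given at least 20 UMIs over both libraries. Beside each count stands the share of all measured genes of that class past the same fold. In type 1 dendritic cells 4 of 9 were past it, all lower after anti-Gr-1 (Cxcl1, Cxcl2, Cxcl9 and Cxcl10), where the share over all genes was 1.13%, and their median was −0.50 against −0.10 over all genes. In mast cells 2 of 5 were past it, against 2.63% of all genes, and in regulatory T cells 2 of 6, against 1.66%. In Retnla Lpl Fn1 phagocytes it was 1 of 8, Cxcl1, against 0.371%, and in dendritic epidermal T cells 1 of 6, Cxcl2, against 0.385%. No member passed among 9 in macrophages (0.976% of all genes), 9 in type 2 dendritic cells (0.0742%), 5 in CD4 T cells (1.62%), 8 in gamma-delta 17 T cells (0.387%) and 7 in Hlf Bmp2 Rora lymphoid cells (0.428%).

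These counts rest partly on single cells. In type 1 dendritic cells Cxcl2 was at 144 and 33.2 CPM, but 1 anti-Gr-1 cell held 77.7% of its UMIs and the ratio of 0.23 (0.201 to 0.263) was 0.0655 without the richest cells, 0.9 (0.762 to 1.06) in female cells and 0.156 (0.113 to 0.214) in male cells. Cxcl1 there was at 10.2 and 0.661 CPM, 1 of 463 isotype control cells held 45.2%, and the ratio of 0.0646 was 0.896 (0.0649 to 12.4) thinned. Pf4, a macrophage transcript, moved with the ligands in type 1 dendritic cells, at 53.6 and 2.2 CPM, a ratio of 0.0411 (0.0248 to 0.0645), and its part in the result was not tested. In regulatory T cells Cxcl2 was at 50.6 and 133 CPM, a ratio of 2.64 (2.19 to 3.18), and 1 anti-Gr-1 cell held 43%. Without the richest cells its ratio was 1.74, under the 2-fold line, and with clusters in place of gates it was 0.897, in the other direction. Leaving out the richest cell of each library in every class kept 8 of the 10 gene and class pairs: Cxcl1 in type 1 dendritic cells and Cxcl2 in regulatory T cells dropped out, and Cxcl9 in macrophages and Cxcl2 in mast cells came in.

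In mast cells Cxcl2 was at 72 and 131 CPM, a ratio of 1.82 (1.5 to 2.22), yet 272 of the 294 anti-Gr-1 UMIs were in 1 cell, and without the richest cells the ratio was 0.143. Cxcr4, at 24.9 and 3.57 CPM, and Cxcr6, at 17.2 and 2.67 CPM, had ratios of 0.143 (0.0589 to 0.302) and 0.155 (0.0537 to 0.371). Cd74, a transcript of antigen-presenting cells, moved with them at 1565 and 309 CPM. Isotype control mast cells were also shallower, with a median of 2681 against 5501 UMIs. The part of Cd74-bearing RNA and of depth in these differences was not tested. Dendritic epidermal T cells had Cxcl2 at 56.7 and 12.7 CPM, a ratio of 0.224 (0.181 to 0.275), or 0.429 (0.277 to 0.64) in female cells, where the level over all cells was 659 and 396 CPM.

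**Figure D5:**
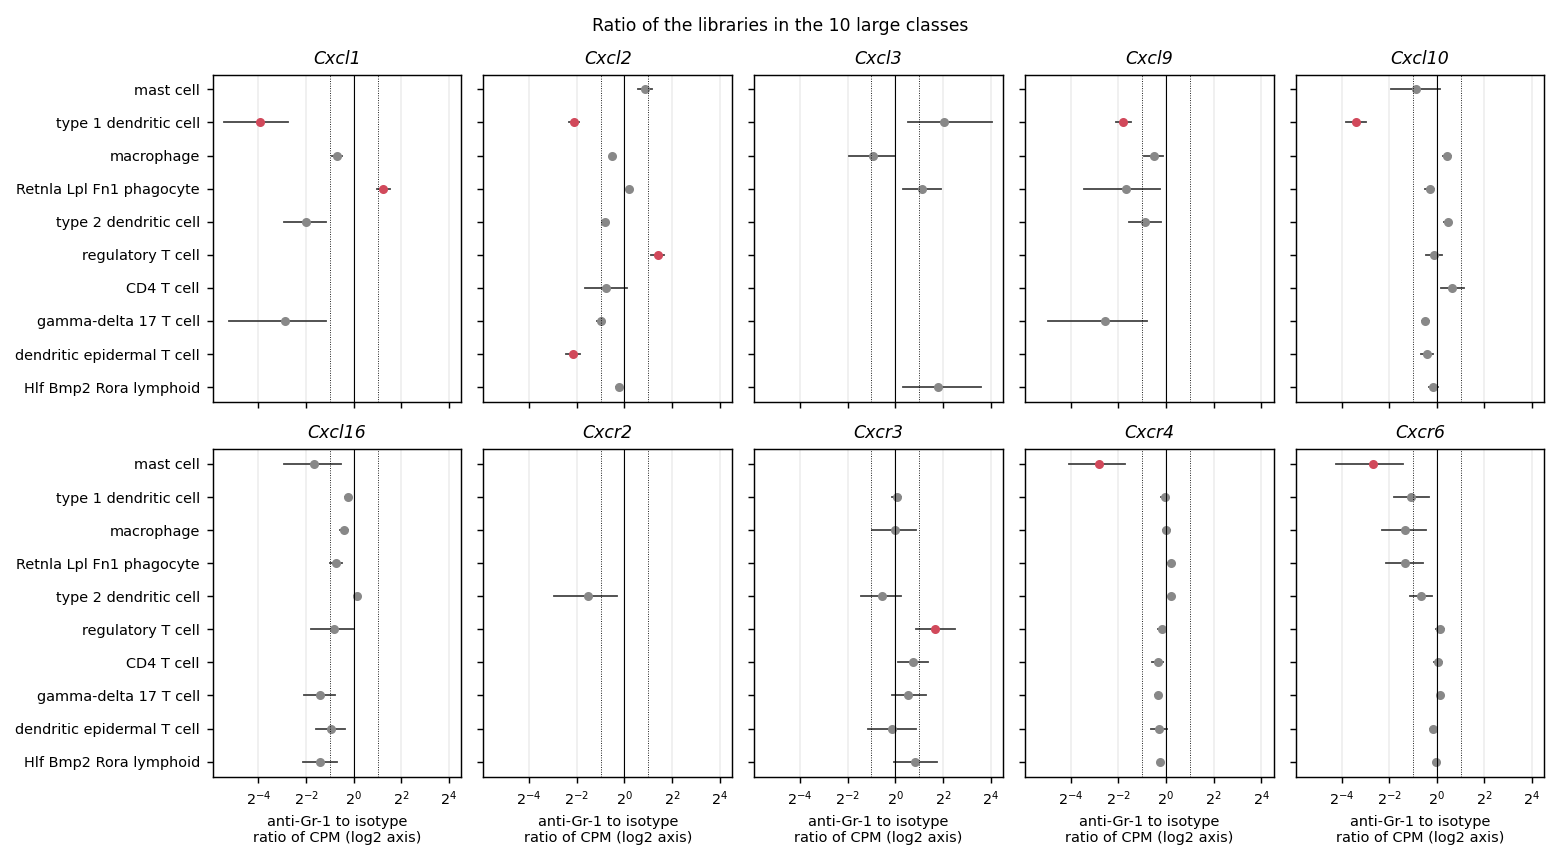
Ratio of anti-Gr-1 to isotype control CPM on a log2 axis in the 10 classes with at least 100 cells in each library, with exact 95% intervals, for genes with at least 20 UMIs; red marks pairs past 2-fold on log2(CPM + 5), and dotted lines stand at a ratio of 2-fold either way. Cxcr6 in gamma-delta 17 T cells (1.09) and Cxcr3 in type 1 dendritic cells (1.04) lie near 1, and 4 ligands are red and low in type 1 dendritic cells.

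Other genes of these pathways were read from lists. Of 16 genes of receptor signalling and desensitisation, such as the G protein subunit Gnai2, the arrestin Arrb2 and the brakes Rgs1 and Rgs2, 0 of 16 were past 2-fold in gamma-delta 17 T cells (0.387% of all genes) or in Hlf Bmp2 Rora lymphoid cells (0.428%). There 14 and 12 were lower, with medians of −0.14 and −0.22 against −0.13 over all genes of either class. In gamma-delta 17 T cells Gnai2 had 565 and 573 CPM and Rgs2 885 and 617 CPM, a ratio of 0.697 (0.672 to 0.723). Of 5 genes of ligand processing and shared binding, type 1 dendritic cells had 0 past 2-fold (1.13% of all genes), with a median of −0.10, as over all genes. There the sheddases of Cxcl16, Adam10 and Adam17, were at 34.7 and 29.7 CPM and at 42.1 and 31.5 CPM, and Dpp4, the protease that clips Cxcl9 and Cxcl10, at 36.5 and 33.6 CPM.

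The NF-kB list in macrophages had 8 of 10 genes lower and 1 past 2-fold (0.976% of all genes), the prostaglandin synthase Ptgs2 at 127 and 40.2 CPM, with a median of −0.43 against −0.04 over all genes. Il1b was at 835 and 431 CPM, while the CC chemokines Ccl3 and Ccl4 had ratios of 1.01 (0.943 to 1.09) and 1.02 (0.977 to 1.07). In Retnla Lpl Fn1 phagocytes 0 of 10 were past 2-fold (0.371% of all genes) and 6 were lower, with a median of −0.08 against −0.07. In type 1 dendritic cells 10 of 10 were lower, with a median of −0.57 against −0.10, and 3 were past 2-fold (1.13% of all genes): Tnf at 67.5 and 28.2 CPM, Il1a at 5.94 and 0.22 CPM and Ccl3 at 39.9 and 12.1 CPM.

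Of 12 further genes of the CXC family, 11 are in the gene list and Cxcl11 was not analysed here. Pf4, a platelet and macrophage chemokine, had 2556 and 3066 CPM in macrophages, a ratio of 1.2 (1.17 to 1.23). Cxcl12, the ligand of Cxcr4, and Cxcl14 were highest in the few keratinocytes of the sort, Cxcl12 at 83.9 and 79.9 CPM and Cxcl14 at 275 and 485 CPM. The B cell receptor Cxcr5 had 103 CPM in isotype control B cells from 11 UMIs. Cxcl5, Cxcl15, Cxcl17 and Cxcr1 had 0 or 1 UMI in a library. The sort for CD45 removes fibroblasts, endothelium and most epithelium, so levels of Cxcl12 in those cells were not measured.

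The genes most like each member in level were found by Pearson's r of log2(CPM + 5) over the 25 class and library combinations with at least 100 cells, which share libraries and depth. They were Slc13a3, Gdf15 and Smpd3 for Cxcl1 (0.93, 0.93 and 0.92), Abcd2, Fgd4 and Cyp4f18 for Cxcl2 (0.88, 0.87 and 0.87), and Hoxc13, Snai1 and Klf5 for Cxcl3 (0.84, 0.81 and 0.79). For Cxcl9 they were Ifi211, Trafd1 and Zdhhc14 (0.88, 0.84 and 0.84), for Cxcl10 Gbp2, Samhd1 and Slc25a37 (0.86, 0.81 and 0.80), and for Cxcl16 Cttnbp2nl, Cst3 and Slc46a3 (0.97, 0.97 and 0.95). Among receptors they were Csta3, Chil1 and Retnlg for Cxcr2 (each rounding to 1), and Cnnm1, Tulp3 and Morn1 for Cxcr3 (0.79, 0.78 and 0.75). Piezo1, Tmem65 and Tgif1 were nearest to Cxcr4 (0.89, 0.89 and 0.88), and Abhd8, Txk and F2r to Cxcr6 (0.98, 0.98 and 0.97).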

How the data were processed

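The deposited matrices hold raw UMI counts for each barcode; per the file headers the authors ran Cell Ranger 4.0.0, and the submitters' processing notes name mm10; the library was 10x 3′ v2 per the labels' protocols. Antibody-derived tags were not used here. Cells with at least 200 genes, 500 UMIs and at most 10% mitochondrial UMIs were kept in Python 3.11.15 with scanpy 1.11.5. From each library a number of cells set in advance from its cell count (3055 and 518) was left out as doublets. These were the cells with the highest scrublet doublet scores. Marker gates gave 22 classes. UMIs were summed per class and library. Levels have exact Poisson, shares exact binomial (Clopper-Pearson) and ratios exact conditional 95% intervals. For a class with 0 UMIs the level of 3 UMIs is given as a guide. With 1 library per treatment no test was made. A pseudocount of 5 CPM was used for the 2-fold call. The call was run on simulated macrophage counts without variation between cells. That run could not check calls that rest on single cells. Alternatives changed gates, classes, doublets, weighting, depth, filters, scaling and sex of cells. Named genes are all members, up to 4 genes a list with the largest ratios in a class (other list genes named were chosen after their values were seen), and the 3 most alike in level. The members, lists and markers were chosen with earlier results of these data known; the splits by Folr2 and Lyve1, by Il17a and by Mki67 and Top2a, the reference classes and the left-out richest cells were chosen after seeing values. GENCODE gave gene positions and RefSeq promoters.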

Additional observations from a re-analysis of the deposited data

Results flagged for a closer look

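In 5 gene and class pairs the anti-Gr-1 to isotype control ratio pointed one way in cells told female by Xist and the other way in cells told male by Y-linked genes, with both 95% intervals clear of 1. Cxcl2 in mast cells had a ratio of 0.0833 in female cells, from 42 and 2 UMIs, and 4.64 in male cells, from 44 and 292 UMIs; 1 anti-Gr-1 mast cell held 272 UMIs. Cxcl9 in macrophages had 2.04 in female cells and 0.0959 in male cells, the latter from 85 and 6 UMIs. Cxcl10 had 1.6 in female and 0.708 in male Retnla Lpl Fn1 phagocytes, and 0.664 in female and 1.37 in male Hlf Bmp2 Rora lymphoid cells. Cxcr4 in macrophages had 0.639 in female cells, 202 and 129 CPM, and 1.55 in male cells, 129.8 and 201 CPM. Other pairs pointed opposite ways with an interval that spanned 1, such as Cxcr4 in type 2 dendritic cells, 0.89 and 1.39. The cells come from pooled mice in 1 library per treatment, and the difference between the sexes was not tested.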

How the results depend on the processing

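No paired analysis was possible because each treatment has 1 library and no test was made. The main class of a member was the one with most of its UMIs among classes with at least 100 cells in each library. For Cxcr2 this was type 2 dendritic cells and not neutrophils, and for Cxcl3 macrophages and not group 2 innate lymphoid cells. The ratio of each member in its main class kept its direction in 10 of 10 with doublets kept, a stricter gate, a lower mitochondrial limit, other totals, either sex, or the richest cells left out (an alternative added after seeing the data). It kept it in 9 of 10 with clusters in place of gates and in 8 of 10 after thinning or with cells weighted equally. The exceptions were Cxcl2 in Retnla Lpl Fn1 phagocytes, 0.994 with clusters, 0.988 with equal weights and 0.893 thinned, and, when thinned, Cxcr3 in type 1 dendritic cells, 0.896, which was 1 with equal weights. Outside main classes, Cxcl2 in regulatory T cells was 0.897 with clusters, and Cxcl10 in macrophages 0.869 in female cells. The cause was not tested.

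Cxcl1 in macrophages was 0.786 with clusters, 0.496 thinned and 0.406 in female cells. Cxcl2 in Retnla Lpl Fn1 phagocytes was 1.46 in female and 1.08 in male cells, and 1.1 without the richest cells. Cxcl3 in macrophages was 0.207 in female cells. Cxcl9 in type 1 dendritic cells was 0.38 with equal weights, 0.597 thinned, 0.582 in female and 0.507 in male cells, and 0.359 without the richest cells. Cxcl10 in gamma-delta 17 T cells was 0.822 with the stricter gate, 0.797 with doublets, 0.843 thinned, 0.896 in female and 0.805 in male cells. Cxcl16 in type 1 dendritic cells was 0.784 thinned and 0.956 in male cells, and Cxcr4 in Hlf Bmp2 Rora lymphoid cells 0.731 in female cells. Cxcr6 in gamma-delta 17 T cells was 1.05 with clusters, 1.15 with doublets, 1.03 with equal weights, 1.01 thinned and 1.06 in female cells.

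Of the isotype control shares, thinning gave 59.5% for Cxcl1 in macrophages, 21.6% for Cxcl2 there, 24.4% for Cxcl3 in group 2 innate lymphoid cells, 12.4% for Cxcl9 and 33% for Cxcr3 in type 1 dendritic cells, 15.4% for Cxcl10 and 38.4% for Cxcr6 in gamma-delta 17 T cells, 18.9% for Cxcl16 in type 2 dendritic cells and 74.8% for Cxcr2 in neutrophils. Clusters gave 36.5% for Cxcl1, 18.7% for Cxcl2, 23.9% for Cxcl16, 68.4% for Cxcr2 and 40.9% for Cxcr6. Keeping doublets gave 50.3% for Cxcl1, 23.8% for Cxcl2, 19.6% for Cxcl16, 40.3% for Cxcr3, 13.4% for Cxcr4 in Hlf Bmp2 Rora lymphoid cells and 36.8% for Cxcr6. The stricter gate gave 25.2% for Cxcl2, 11.4% for Cxcl10, 20.5% for Cxcl16, 8.97% for Cxcr4 and 34.2% for Cxcr6. At 1.5-fold, 23 gene and class pairs were past the line in place of 10. The depth limits scarce genes most, such as Cxcl3 with 337 and 287 UMIs and Cxcr2 with 427 and 123.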

Other observations

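Cycling cells of 1 lymphoid class held more Cxcl10. In Hlf Bmp2 Rora lymphoid cells with a UMI of the cycle genes Mki67 or Top2a, Cxcl10 was at 181 CPM (161 to 204) in the isotype control, against 45.1 CPM (39.8 to 50.8) in those without. After anti-Gr-1 the levels were 91.7 CPM (78 to 107) and 57.7 CPM (51.5 to 64.4). The cycling cells were deeper, with medians of 8339 against 6094 UMIs and 12087 against 8070 UMIs. Their Cxcr4 ran the other way, at 302 against 338 CPM and 242 against 293 CPM. Over the class, 1 isotype control cell held 121 of the 542 Cxcl10 UMIs. Whether that cell was a cycling one was not determined, and the cycling cells of that library held 274. The same split of dendritic epidermal T cells gave 14.4 against 33.2 CPM in the isotype control and 34.6 against 22.3 CPM after anti-Gr-1. Type 2 dendritic cells had 35.9 against 36.9 CPM and 50.3 against 49.9 CPM.

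Cxcl9 and Cxcl10 were also read together in type 1 dendritic cells: Cxcl10 was present in 12 of 32 Cxcl9-positive cells of the isotype control and in 3 of 38 after anti-Gr-1. Among Cxcl9-negative cells the shares were 9.28% and 4.8%. This difference was not tested.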
